A study of Mus musculus with 2 samples.

Results

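The genes described here encode the proteins of the mitochondrial ribosome, and were taken as all probes whose platform symbol begins with Mrpl (large subunit) or Mrps (small subunit) followed by a number. The rule gave 132 of 45281 probes, for 76 of 19057 named genes, 48 of the large and 28 of the small subunit. Messenger RNA was measured on Illumina MouseWG-6 v2.0 bead arrays in femoral bone marrow of mice aged 8 days. One array was labelled wild type and the other Dnmt2-/-, so there was 1 array per genotype. Dnmt2 (symbol Trdmt1) is an RNA methyltransferase that acts on a few transfer RNAs. The strain, the construction of the Dnmt2 allele and the number of animals behind each RNA are unknown from the sources used. With no replicate, no difference below has a test or an error, and each describes these 2 arrays and not the genotypes. Precision is limited by that number of arrays.

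Mitochondria keep their own ribosome, which translates the few proteins encoded in mitochondrial DNA, all of them subunits of the respiratory chain and ATP synthase. Its ribosomal RNAs come from mitochondrial DNA, whereas every one of its proteins is encoded in the nucleus, made in the cytosol and imported. Many of these proteins have counterparts in bacterial ribosomes and others are found only in mitochondria. In marrow, developing red cells depend on this machinery for haem synthesis and respiration before they lose their mitochondria.

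The arrays are named by their labels, since the Dnmt2 transcript did not settle them. Its brightest Trdmt1 probe had a signal of 112.4 on the wild-type-labelled array and 148.8 on the Dnmt2-/--labelled array (log2 ratio 0.62). A further probe detected on both arrays had signals of 106.0 and 107.6 (-0.27). The remaining probes, detected on the Dnmt2-/--labelled array only, had signals of 97.1 and 118.2 (0.66) and of 84.1 and 113.3 (0.91). All these signals are near background, and where the probes lie relative to the deleted part is not given. The arrays also differed in sex-linked RNA. Xist, the RNA that inactivates an X chromosome in females, was detected on the wild-type-labelled array at 822.7 and not on the other, and Y-linked Eif2s3y was detected on the Dnmt2-/--labelled array only, at 466.8. The difference in sex-linked RNA cannot be told apart from that in genotype label, and its part in the results below was not tested. None of the 76 members lies on the X or Y chromosome, but genes on other chromosomes can also differ between the sexes. All 7 neutrophil markers and all matched markers of the erythroid, B cell, macrophage and megakaryocyte lineages were detected on both arrays. Among the macrophage markers, Adgre1 was 1.86-fold and C1qa 1.63-fold lower on the Dnmt2-/--labelled array, and Csf1r had a log2 ratio of 0.20. All 3 megakaryocyte markers were lower (median log2 -0.20), as were 5 of 7 neutrophil markers (-0.12). The erythroid factor gene Klf1 was 1.52-fold higher while the 4 erythroid markers had a median of 0.02, and the B cell markers of 0.04. The 5 proliferation genes had a median of 0.36, with 3 higher and 2 lower, but 0.04 with the mean over detected probes. Skeletal muscle and cartilage markers were also present and were higher on the Dnmt2-/--labelled array. All 8 muscle markers were higher, with a summed signal of 7290.5 on the wild-type-labelled array and 14023.6 on the Dnmt2-/--labelled array. All 4 cartilage markers detected on both arrays were higher, and the summed signal of the 6 was 975.6 and 2531.2, with Matn3 detected on neither array and Col9a1 on 1 only. The 5 osteoblast markers summed to 14258.3 and 18444.9, and the 5 osteoclast markers to 7254.5 and 14391.2. The brightest osteoblast marker, Bglap, was lower as deposited (8734.2 and 7884.8), with 3 others higher and Dmp1 detected on neither array. Ctsk (6683.2 and 13500.0) made up most of the osteoclast sum, and Calcr was detected on neither array. The part of these tissues and lineages in the results below was not tested.

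Most mitochondrial ribosomal protein genes were slightly lower on the Dnmt2-/--labelled array, relative to all genes. A gene was called detected when its brightest probe had a detection p-value below 0.01 on both arrays, which held for 72 of the 76 members. Differences are given as the log2 ratio of the Dnmt2-/--labelled array over the wild-type-labelled array, after background correction and quantile normalization. Of the 72 detected members, 57 (79.2%) had a ratio below 0, against 51.7% of the 9746 genes detected on both arrays. The median ratio was -0.18 (1.13-fold lower) over the members and -0.02 over all detected genes. The middle 50% of members lay between -0.37 and -0.03, and the middle 50% of all detected genes between -0.24 and 0.22.

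The differences were small for each gene. Only 2 members, Mrpl51 and Mrps21, were lower by at least 1.5-fold and none was higher by that much, while 5.16% of all detected genes were lower and 6.61% higher by at least 1.5-fold. A threshold of 1.2-fold, chosen after the values were seen, was passed downward by 26 of the 72 detected members and upward by 3. Of all detected genes, 22.7% passed it downward and 21.5% upward. With median scaling in place of quantile normalization the members' counts were 18 and 12. The median of all detected genes was then 0.145, and the shares of all genes past 1.2-fold were not counted in that setting. The counts of 18 and 12 can therefore not be set against 22.7% and 21.5%. The members' ratios had an SD of 0.24, against 0.38 over all detected genes.

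**Figure D1:**
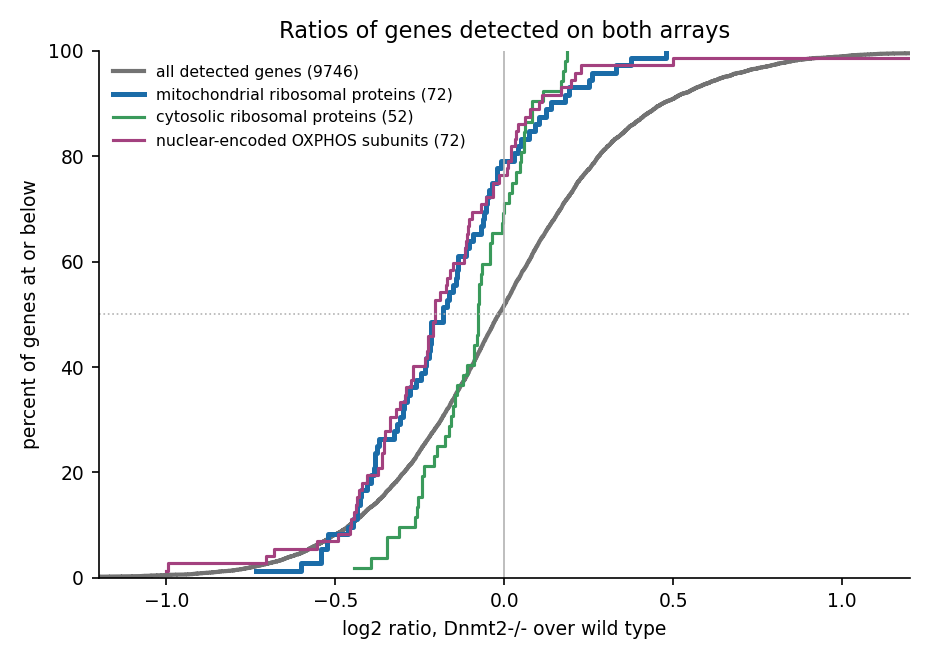
Cumulative share of genes (percent, vertical axis) at or below each log2 ratio of the Dnmt2-/--labelled array over the wild-type-labelled array (horizontal axis), for the 72 detected mitochondrial ribosomal protein genes, all 9746 detected genes, 52 cytosolic ribosomal protein genes and 72 nuclear-encoded genes of oxidative phosphorylation. The curve of the mitochondrial ribosomal proteins crosses 50% at -0.18 and that of all genes at -0.02.

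The deposited signals were also compared before any correction. Detected members had signals from 99.6 to 4555.0 on the wild-type-labelled array, with a median of 899.8, and from 107.0 to 3691.9 on the Dnmt2-/--labelled array, with a median of 872.6. The fitted background was 90.9 and 94.8 intensity units. Only 37 of 72 members (51.4%) had the higher deposited signal on the Dnmt2-/--labelled array, whereas 78.6% of all detected genes did. The members' ratios below 0 are thus relative to the other genes of the same arrays.

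**Figure D2:**
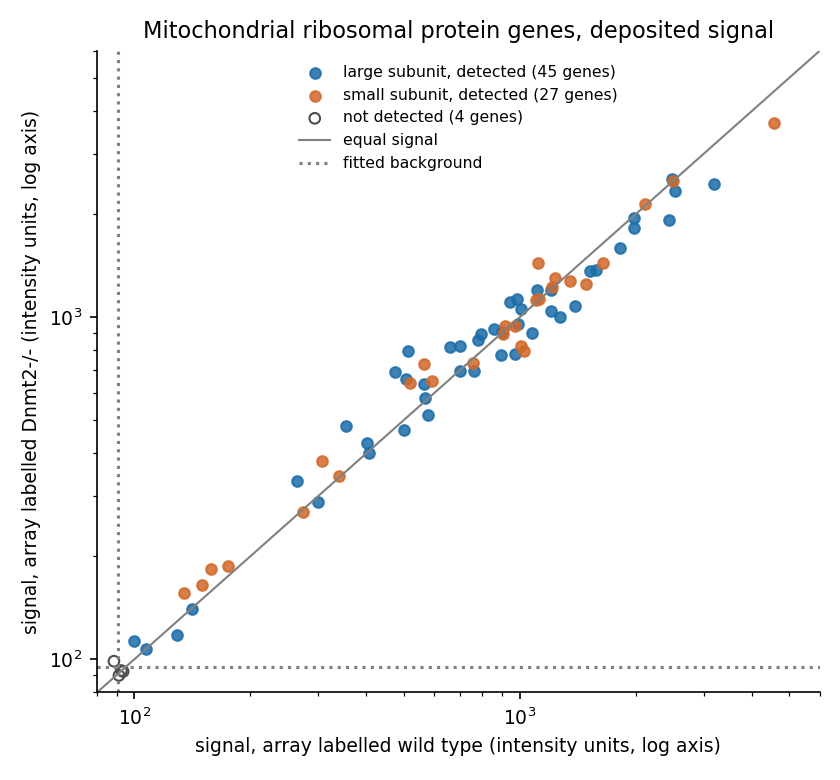
Deposited signal of each member's brightest probe on the wild-type-labelled array (horizontal) and on the Dnmt2-/--labelled array (vertical), in intensity units on log axes, with 1 point per gene. Points lie on both sides of the line of equal signal, and the 4 genes not detected sit at the fitted background (dotted lines).

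Both subunits shared the direction. In the large subunit 35 of 45 detected genes were lower, with a median log2 ratio of -0.22 and a range of -0.73 to 0.48. In the small subunit 22 of 27 were lower, with a median of -0.14 and a range of -0.60 to 0.25. The proteins of Mrps18a and Mrps30 are known to sit in the large subunit despite their symbols, and counting them there gave medians of -0.18 (47 genes) and -0.16 (25 genes). The difference between the subunits was not tested. By ancestry, 39 of 45 detected genes whose proteins have a bacterial counterpart were lower (median -0.22), as were 18 of 27 found in mitochondria only (median -0.06), a grouping made after the values were seen.

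The lowest ratios of the large subunit belonged to 3 mitochondria-only subunits and to Mrpl34. Mrpl51, a subunit found in mitochondria only, had a signal of 128.9 on the wild-type-labelled array and 117.8 on the Dnmt2-/--labelled array, a log2 ratio of -0.73 (1.66-fold lower). Both values are close to background, and the ratio was -0.28 without background correction. Further Mrpl51 probes, detected on the Dnmt2-/--labelled array only, gave 0.05 (signals of 96.4 and 102.7) and 0.22 (94.2 and 103.6). Mrpl34, a short basic protein with a bacterial counterpart, had signals of 971.8 and 782.5 (log2 -0.54). Mrpl54 had signals of 1387.5 and 1075.3 (-0.54), and Mrpl42 1270.6 and 1002.4 (-0.52), both mitochondria-only subunits. These 3 lay far above background and were lower on the Dnmt2-/--labelled array already as deposited.

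The highest ratios of the large subunit belonged to Mrpl49, Mrpl1, Mrpl39 and Mrpl44. Mrpl49, a mitochondria-only subunit, had signals of 511.7 and 796.1 in its brightest probe, a log2 ratio of 0.48 (1.39-fold higher), but its probes disagreed as given below. Mrpl1, which forms the mobile stalk near the site where spent transfer RNA leaves, had signals of 474.5 and 690.3 (0.38). Mrpl39 had signals of 99.6 and 113.3 (0.33), near background on both arrays. Mrpl44, whose protein carries a ribonuclease III-like domain and whose human counterpart is mutated in an inherited cardiomyopathy, had signals of 353.7 and 480.6 (0.26). Of these 4, Mrpl1, Mrpl44 and the brightest Mrpl49 probe were well above background.

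Further large subunit genes with known roles differed in direction. Mrpl12, the stalk protein that recruits elongation factors and also binds the mitochondrial RNA polymerase, had signals of 1820.0 and 1593.4, a log2 ratio of -0.30. Mrpl11, at the base of the same stalk, had signals of 402.0 and 427.2 (-0.18, and 0.02 with median scaling). Mrpl28 had signals of 2523.6 and 2335.4 (-0.17). Mrpl3, which lies near the peptidyl transferase centre and whose human counterpart is also a cardiomyopathy gene, had signals of 699.6 and 822.8 (0.03), with 0.58 in a second probe. Mrpl12 and Mrpl28 were thus lower as deposited and Mrpl11 and Mrpl3 higher.

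The lowest genes of the small subunit all encode proteins with bacterial counterparts. Mrps21 had a signal of 1027.3 on the wild-type-labelled array and 797.3 on the Dnmt2-/--labelled array, a log2 ratio of -0.60 (1.52-fold lower). Mrps16, whose human counterpart is mutated in a respiratory chain deficiency, had signals of 1004.8 and 821.4 (-0.52). Mrps18c had signals of 1485.3 and 1249.7 (-0.40), and Mrps5, which lines the entry channel for messenger RNA, 273.9 and 268.6 (-0.38). Mrps12, the decoding centre protein, had signals of 1645.5 and 1438.2 (-0.32), and its second probe gave -0.53. All 5 had the lower deposited signal on the Dnmt2-/--labelled array.

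At the other end, Mrps9 had signals of 1112.8 and 1443.3, a log2 ratio of 0.25 (1.19-fold higher). Mrps18a had signals of 565.4 and 728.7 (0.18), and Mrps22, a human disease gene, 517.4 and 642.9 (0.10). Mrps35 had signals of 307.2 and 379.9 (0.09). The 3 paralogs of the S18 family differed, with Mrps18c at -0.40, Mrps18b (912.6 and 941.2) at -0.14 and Mrps18a at 0.18. Further probes of Mrps18b gave 0.25 and 0.05, and its mean over probes was 0.05, so their order was not resolved. Further small subunit genes linked to human mitochondrial disease were close to the median. Mrps34 had signals of 1353.6 and 1272.2 (-0.23), Mrps7 1122.5 and 1126.8 (-0.16) and Mrps2 150.2 and 165.0 (-0.14, and 0.13 with median scaling). Mrps30 had signals of 1210.2 and 1221.5 (-0.14), and Mrps27, which has RNA-binding pentatricopeptide repeats, 134.4 and 156.2 (0.05).

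The 4 members detected on neither array were Mrpl19, Mrpl32, Mrpl45 and Mrps14, with signals of 88.5 to 98.7. Mrpl45 is the protein by which the ribosome is held at the inner membrane, Mrpl32 is trimmed by a mitochondrial protease before assembly, and Mrps14 belongs to the head of the small subunit. No member was detected on 1 array only by its brightest probe. The reference lists 2 further protein-coding genes under the rule, Mrpl41 and Mrps36, which were not analysed here.

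**Figure D3:**
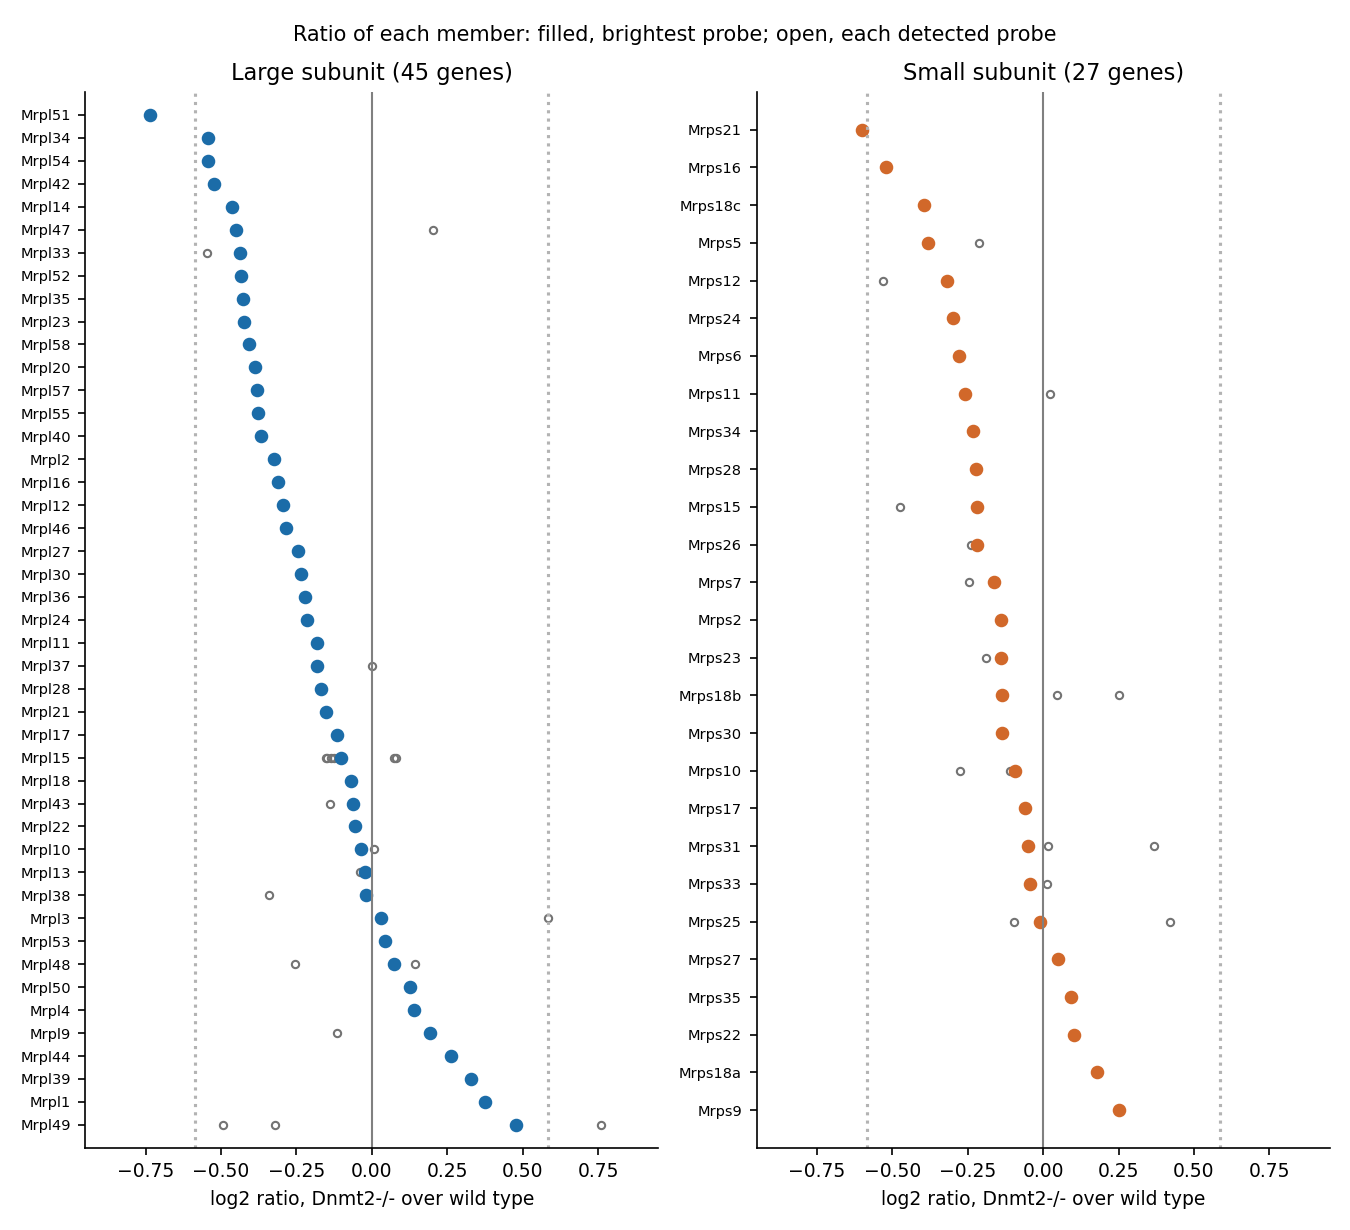
Log2 ratio of the Dnmt2-/--labelled array over the wild-type-labelled array (horizontal axis) for each of the 45 large and 27 small subunit genes detected on both arrays (vertical axis, sorted). Filled points are the brightest probe, open points every probe detected on both arrays, dotted lines 1.5-fold; filled points of 35 large and 22 small subunit genes lie below 0.

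Probes of the same gene show how finely these ratios can be read. Of the 132 member probes, 108 were detected on both arrays, and 24 genes had at least 2 such probes (60 probes in all). Within these genes the pooled SD between probes was 0.25, against 0.29 over 3375 genes with several detected probes. It was as large as the SD of 0.24 between members, so the order of members along the scale was not resolved by these arrays, and 12 of the 24 genes had probes on both sides of 0. Probes of 2 genes lay more than 1.5-fold apart. For Mrpl49, 4 probes gave 0.48, 0.76, -0.32 and -0.49, the first with signals of 511.7 and 796.1 and the second with 130.5 and 196.2. For Mrpl47, the counterpart of a bacterial protein near the exit of the peptide tunnel, the brightest probe had signals of 577.3 and 516.5 (-0.45) and a probe near background 109.9 and 126.6 (0.20). With the mean over all detected probes of each gene, the median over the 72 members was -0.17. Only the 24 genes with at least 2 detected probes could change in this way, so the choice of probe was examined for them alone.

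Lower ratios went with compact genes, both within the group and across the array. The median genomic span of detected members, introns included, was 7690 bases, against 21542 bases over 9731 detected genes with a span in the reference. When all detected genes were ranked by span and divided into 4 equal bins, the bin from 88 to 8925 bases had a median log2 ratio of -0.09 and held 44 members, 38 of them lower, with a median of -0.23. The next bin, up to 21537 bases, had a median of -0.02 over all genes and -0.14 over its 19 members. In the remaining bins the medians over all genes were 0.01 and 0.05, and the 3 and 6 members there had medians of 0.03 and 0.06. The share of all genes below 0 was not counted within each bin. Across the 72 members the Spearman correlation of span and ratio was 0.34, and across 9731 genes 0.14, given as descriptions because all genes share the same 2 arrays. The span includes introns and is not the length of the messenger RNA, and its part in the members' lower median was not tested. By brightness, the medians over all genes were -0.03, -0.01 and -0.02 in 3 equal bins of low, middle and high normalized level. The members' medians in these bins were -0.38 (5 genes), -0.22 (9 genes) and -0.17 (58 genes).

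**Figure D4:**
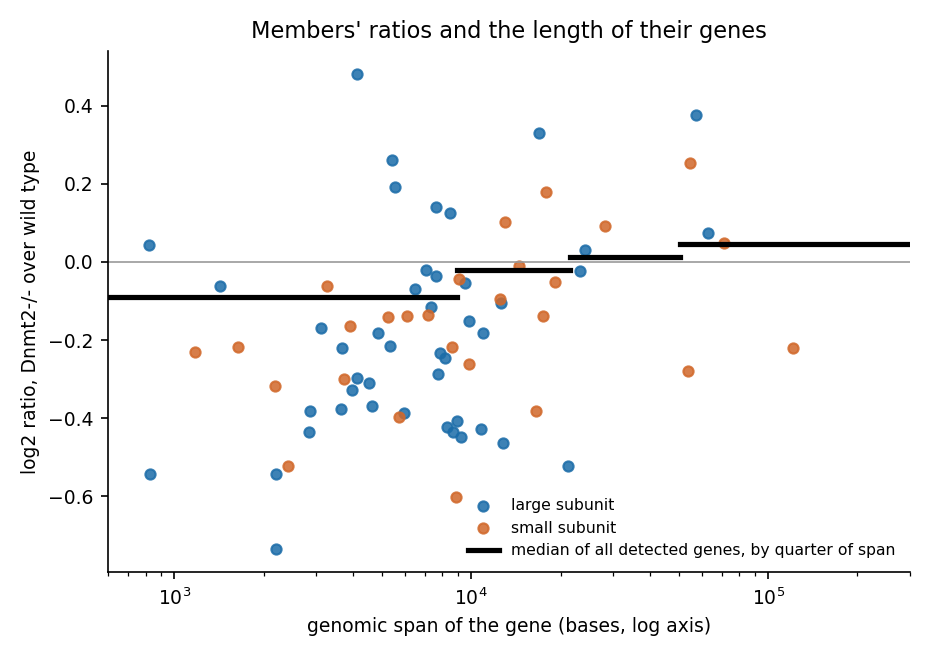
Log2 ratio of each detected member (vertical axis) against the genomic span of its gene in bases (horizontal log axis), coloured by subunit, with black lines for the median of all detected genes in each of 4 equal bins of span. Of the 44 members in the shortest bin, where the median of all genes is -0.09, 38 lie below 0. The 9 members in the longest 2 bins scatter around 0.

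The promoters of these genes have features in common that the rule did not use. RefSeq promoter windows (GRCm38.p6, 250 bases before to 50 after a gene's start) matched 67 of the 76 members with 73 windows. The ETS core CCGGAAG, read by ETS family factors such as GABP, was present on either strand in 35.6% of member windows, in 17.0% of windows of detected genes and in 8.9% of all 32851 windows. The palindromic NRF1 motif stood in 17.8%, 9.5% and 4.6%, and the YY1 core AAGATGGC in 16.4%, 4.3% and 2.7%. At least 1 of the 3 was found in 58.9% of member windows, 27.2% of windows of detected genes and 14.7% of all windows. The median share of G or C was 58.7%, 60.3% and 52.7% in these sets, and its part in the motif shares was not tested. GABP, NRF1 and YY1 are known regulators of nuclear genes for mitochondrial proteins, and a match is a description of letters, not of binding. The CCAAT box, by contrast, was about as frequent in member windows (38.4%) as in all windows (37.4%).

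The stretches below show such motifs in the 120 bases before the start, for the 3 lowest and the 3 highest of the members named above that carry one there. The motif is in capitals, and each stretch is written 5′ to 3′ on the gene's own strand.
Mrpl51 (chr6:125192080-125192199, plus strand, ETS core): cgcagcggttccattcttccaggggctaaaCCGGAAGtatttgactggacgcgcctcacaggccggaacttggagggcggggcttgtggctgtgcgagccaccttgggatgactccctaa
Mrps21 (chr3:95871515-95871634, minus strand, NRF1): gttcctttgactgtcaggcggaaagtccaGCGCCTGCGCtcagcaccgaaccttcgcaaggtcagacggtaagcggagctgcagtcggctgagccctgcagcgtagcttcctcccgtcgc
Mrpl34 (chr8:71464806-71464925, plus strand, ETS core): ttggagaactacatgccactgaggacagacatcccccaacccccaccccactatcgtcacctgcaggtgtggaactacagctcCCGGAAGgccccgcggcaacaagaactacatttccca
Mrps22 (chr9:98601680-98601799, minus strand, ETS core): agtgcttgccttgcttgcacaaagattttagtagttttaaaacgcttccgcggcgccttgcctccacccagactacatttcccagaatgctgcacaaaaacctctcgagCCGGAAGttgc
Mrps18a (chr17:46110884-46111003, plus strand, ETS core): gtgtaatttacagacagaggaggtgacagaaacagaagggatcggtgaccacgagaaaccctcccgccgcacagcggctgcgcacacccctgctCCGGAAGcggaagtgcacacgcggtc
Mrpl44 (chr1:79775898-79776017, plus strand, NRF1 read on the other strand): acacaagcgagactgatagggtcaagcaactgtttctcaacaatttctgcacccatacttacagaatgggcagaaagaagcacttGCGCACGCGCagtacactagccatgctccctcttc

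The motifs stood at both ends of the order of ratios. Detected members with the ETS core in a window had a median log2 ratio of -0.15 (26 genes) and those without it -0.22 (38 genes). With and without the NRF1 motif the medians were -0.22 (11 genes) and -0.18 (53 genes), and with and without the YY1 core -0.22 (11 genes) and -0.18 (53 genes). These differences were not tested.

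Genes that read these motifs, or that are known to drive mitochondrial gene programmes, had a median of -0.01 over 6 detected genes of 9. Nrf1 had signals of 1314.1 and 1394.8 (log2 -0.04) and Gabpa, the DNA-binding subunit of GABP, 130.7 and 149.4 (0.02), both chosen after their values were seen. Gabpb1, its partner subunit, had signals of 154.8 and 162.1 (-0.27) and Esrra, a nuclear receptor, 231.0 and 264.6 (-0.08). The coactivator genes Ppargc1b (148.9 and 195.0, log2 0.32) and Pprc1 (283.6 and 438.8, log2 0.51) were the highest of those detected on both arrays. Myc, a general activator of growth genes, was detected on the Dnmt2-/--labelled array only, with signals of 93.2 and 115.9. Esrra was at 0.18 with median scaling. Yy1 and Ppargc1a were detected on neither array. No gene of the list passed 1.5-fold as reported among those detected on both arrays, but Pprc1 passed it with median scaling (0.72).

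Other genes of the mitochondrial translation apparatus had medians on both sides of 0. Mitoribosome proteins with other symbols had a median of -0.06 over 4 genes, from Chchd1 (4560.1 and 3618.2, log2 -0.34) and Gadd45gip1 (107.6 and 110.9, -0.22) to the death-associated GTP-binding protein gene Dap3 (3886.1 and 4097.3, 0.09) and Ptcd3 (158.1 and 196.5, 0.17). Translation factors and their helpers had a median of 0.15 over 13 genes, with 8 higher and 5 lower (38.5%, against 51.7% of all detected genes). Slirp, which protects mitochondrial messenger RNA together with Lrpprc, was 1.57-fold lower with signals of 1023.1 and 767.9 (-0.65), and the initiation factor gene Mtif3 was at -0.31. The elongation factor gene Gfm1 (0.39) and the release factor gene Mtrf1l (0.36) were the highest by the brightest probe, but Gfm1 was at -0.04 with the mean over its probes. Slirp was at -0.53 with median scaling, below 1.5-fold. The median of this list was -0.04 with the mean over probes, a change of direction with the choice of probe.

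Assembly factors and ribosomal RNA modifying enzymes had a median of -0.02 over 21 genes, with 12 lower (57.1%, against 51.7% of all detected genes). Mrm1 and Mrm3, which methylate riboses in the large mitochondrial ribosomal RNA, were 2.10-fold higher (signals of 331.0 and 715.1, log2 1.07) and 1.57-fold higher (136.5 and 200.2, log2 0.65). Trmt2b, a methyltransferase of mitochondrial RNA, was the lowest (194.3 and 186.6, log2 -0.49), followed by the assembly GTPase gene Gtpbp10 (116.3 and 117.1, -0.35), which was at -0.001 with the mean over its probes. Mrm3 did not reach 1.5-fold without background correction (0.34), with an offset of 50 (0.47) or in the authors' processed values (0.43), whereas Mrm1 ran from 0.89 to 1.25 over the settings. Mrm1 was further from 0 than any of the 72 detected members.

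Aminoacyl-tRNA synthetases and amidation enzymes of mitochondria had a median of -0.06 over 16 genes, with 10 lower (62.5%, against 51.7% of all detected genes). Tars2, the threonyl enzyme, was 1.57-fold lower (205.7 and 184.1, log2 -0.65), and Vars2, the valyl enzyme, was at -0.57 (243.5 and 221.4). Qrsl1, a subunit of the amidotransferase that makes glutaminyl-tRNA, was 1.65-fold higher (274.5 and 476.0, log2 0.72), and Pars2 was at 0.30. Tars2 did not reach 1.5-fold in 4 settings (-0.38 with median scaling, to -0.50 with an offset of 50), nor Qrsl1 without background correction (0.57). Genes of mitochondrial DNA replication and transcription had a median of 0.11 over 10 genes, with 6 higher and 4 lower (40.0%). Tefm, the transcription elongation factor, was 1.60-fold higher (156.8 and 244.1, log2 0.67) and the helicase gene Twnk was at 0.39, whereas Polg, the polymerase, was at -0.23 and Mterf1a at -0.11. Tefm was at 0.41 without background correction, 0.52 with an offset of 50 and 0.50 in the authors' processed values, all below 1.5-fold. With median scaling Polg was at 0.04 and Mterf1a at 0.08, and the medians of the assembly, synthetase and regulator lists were also above 0, at 0.17, 0.08 and 0.23.

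Nuclear-encoded subunits of oxidative phosphorylation were also mostly lower. Their median was -0.205 over 72 detected genes, with 55 lower (76.4%) and 29 lower by at least 1.2-fold, and their median genomic span was 7106 bases. Cytosolic ribosomal proteins had a median of -0.08 over 52 detected genes, with 36 lower (69.2%) and 6 lower by at least 1.2-fold, and their median span was 3250 bases. Of all detected genes, 51.7% were lower and 22.7% were lower by at least 1.2-fold. With median scaling the medians were -0.175 for the cytosolic ribosomal proteins, -0.18 for oxidative phosphorylation and -0.067 for the members, so the order of the groups depended on the scaling. No test of a difference between these groups was possible with 1 array per genotype.

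The direction of the group's shift was kept over the processing settings, and its size was not. Over 9 alternatives the members' median ran from -0.18 to -0.07. The number lower ran from 46 of 72 with median scaling to 60 of 76 with undetected members included. The share of all genes below 0 was not counted in the alternatives. The members' median nearest 0 came from median scaling, under which the median of all detected genes moved to 0.145. Relative to the median of all genes in the same setting, the members' median lay between -0.21 and -0.14. The counts past 1.5-fold did not hold, since 4 of the alternatives left no member lower by that much.

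**Figure D5:**
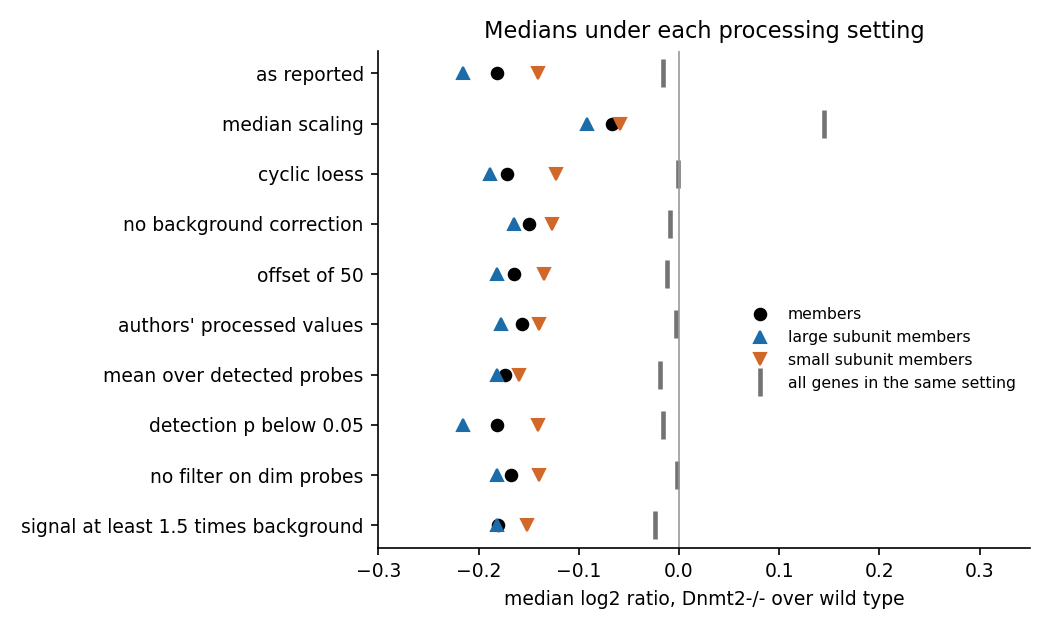
Median log2 ratio of the Dnmt2-/--labelled array over the wild-type-labelled array (horizontal axis) over all members, large subunit members, small subunit members and all genes, under each processing setting (vertical axis). The members' medians lie between -0.18 and -0.07 and to the left of the median of all genes in each setting.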

How the data were processed

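The authors deposited a non-normalized table with 1 signal intensity and 1 detection p-value per probe and array, and a second table that they had normalized. The sources used here do not name that method. The normalized intensities are linear and not centred, with medians of 101.8 and 101.1. They follow the direction of the same array's signal and were used only as an alternative. RNA was extracted with Trizol and amplified to biotin-labelled cRNA, per the labels' protocols. The median signal was 95.1 and 100.2.

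Probes were named from the platform annotation (34885 probes with 1 symbol, 18 with several, 10378 with none). Background was corrected with normexp in limma 3.58.1 (R 4.3.3), whose background parameters came from the deposited detection p-values. An offset of 16 was added, and log2 values were quantile normalized. The offset shrinks ratios of dim genes. The probe with the highest mean stood for each gene. No test was run.

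The members and lists were chosen with earlier results of these data known. Named genes are members past 1.5-fold, the 4 highest and 4 lowest per subunit, undetected members, members with discordant probes, and a list of members with known roles. In the other mitochondrial gene expression lists they are the 2 highest and 2 lowest and any past 1.5-fold. The steps were tested on simulated data.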

Additional observations from a re-analysis of the deposited data

How the results depend on the processing

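The members' median log2 ratio was below 0 in each of 9 other settings, and it changed by over 0.1 in 1 of them. With median scaling it was -0.067 over all members and -0.092 over the large subunit, with 1 member at least 1.5-fold higher and 0 lower. The number at least 1.5-fold lower was 1 with cyclic loess and with signals at least 1.5 times background, and 0 without background correction, with an offset of 50 and in the authors' processed values, against 2 as reported. Over the 10 settings the number at least 1.2-fold lower ran from 18 to 26 and the number higher from 2 to 12. The shares of all genes past 1.2-fold and 1.5-fold were counted only in the setting reported. The median of the translation factors, 0.15 as reported, was -0.037 with the mean over detected probes. The causes of these changes were not tested. A larger offset, or no background correction, shrinks ratios by construction. The 4 undetected members and those near background, such as Mrpl51 and Mrpl39, are limited by signal over background. No paired analysis was possible because each genotype had 1 array.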
